A study of Homo sapiens with 10 samples.

Results

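The 9 genes described here, LPCAT1, LPCAT2, LPCAT3, LPCAT4, MBOAT1, MBOAT2, MBOAT7, LPGAT1 and AGPAT2, encode enzymes that add a fatty acid to a lysophospholipid. They were listed by symbol and matched to Ensembl identifiers, 9 of the 58037 identifiers in the expression tables, and to the gene names in the lists of m6A peaks. All 9 were among the 16406 genes that passed the filter on low counts. The list was selected on the measured input RNA, since results of the A549/DDP against A549 contrast were known when it was drawn up. The differences of its members in that contrast are therefore given as descriptions and support nothing by themselves.

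The libraries came from A549, a human lung adenocarcinoma cell line, and from A549/DDP, cells of that line with resistance to cisplatin (DDP), both grown in the same medium with serum and antibiotics and kept at low passage. How A549/DDP was derived, and whether it is a single clone, is not given in the labels. The paper states that A549 was bought from a supplier and that A549/DDP was a gift from another laboratory. Source and resistance therefore cannot be told apart in any comparison of the lines. Each line had 2 input libraries of RNA that was not pulled down and 2 m6A-seq libraries. In the latter, fragments were captured with an antibody against N6-methyladenosine. A further pair of A549 inputs brought the series to 10 libraries, and the labels do not say which experiment that pair belongs to. The labels do not say that replicates were separate cultures, so every p-value measures only the spread between these samples. The 4 inputs compared held 29225501 to 35286514 expected counts each. Of 5 epithelial markers all reached 1 TPM (the share of a gene among all transcripts, allowing for their lengths), with summed levels of 3684 to 7921 TPM in A549 and 14736 to 14741 TPM in A549/DDP. KRT8, KRT18 and CDH1 were higher in A549/DDP by quasi-likelihood testing in edgeR, adjusted by the Benjamini-Hochberg method over all genes tested (adjusted p = 0.0324, 0.0146 and 0.0220). The other epithelial markers did not pass: KRT19 had 29.4 and 41.1 CPM (counts scaled by TMM to a common library size) in A549 and 7.19 and 0 CPM in A549/DDP (log2 fold change -3.30, standard error 1.62), and the log2 fold change of EPCAM was -0.07. Of the alveolar type II markers, SFTPA1, SFTPB and SFTPC stayed under 1 TPM in every one of these libraries, as did all 4 endothelial markers and the leukocyte markers PTPRC and CD3E. Alveolar type II markers summed to 16.3 to 18.2 TPM in A549 and 24.2 to 38.8 TPM in A549/DDP. Most of this was ABCA3, with 11.63 and 18.17 TPM in A549 and 34.39 and 22.04 TPM in A549/DDP. ABCA3 was higher in A549/DDP (log2 fold change 1.04, adjusted p = 0.0188 in edgeR). NAPSA had 1.51 and 0 TPM in A549 and 3.94 and 2.16 TPM in A549/DDP, and did not pass. LAMP3 had 3.14 and 0 TPM in A549 and 0 and 0 TPM in A549/DDP, and was not tested. The leukocyte marker CD68 was well expressed, with 156 and 154 TPM in A549 and 128 and 141 TPM in A549/DDP. CD14 had 0.60 and 0.03 TPM in A549 and 1.46 and 4.86 TPM in A549/DDP. Fibroblast markers summed to 5.25 to 8.93 TPM in A549 and 3.04 to 20.3 TPM in A549/DDP. The part of these marker levels in the results below was not tested.

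Phospholipids are made first with one set of fatty acids and then remodelled. In the Lands cycle a phospholipase A removes an acyl chain, leaving a lysophospholipid, and an acyltransferase puts a different chain in its place, which sets how saturated and how fluid a membrane is. LPCAT1, LPCAT2, LPGAT1 and AGPAT2 carry the acyltransferase motifs of the AGPAT family, and LPCAT4 belongs to that family too, whereas LPCAT3, MBOAT1, MBOAT2 and MBOAT7 are membrane-bound O-acyltransferases. In the alveolar type II cell, LPCAT1 makes the dipalmitoyl phosphatidylcholine of surfactant.

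RefSeq promoter windows of the GRCh38.p14 assembly, reaching from 250 bases before to 50 bases after a gene start, were found for 7 of the 9 genes, and LPCAT2 and MBOAT1 are named only. These windows were searched on both strands for the antioxidant response element core TGACNNNGC, the GC box GGGCGG and the sterol element TCACNCCAC. The GC box lay in the windows of 7 of the 7 genes and in 45.0% of all 35116 windows. The antioxidant response element core lay in that of LPCAT4 alone among the 7 and in 13.3% of all windows. In LPCAT4 a GC box starts right where this match ends, with no base between. The sterol element lay in none of the 7 and in 1.13% of all windows. Such a match is a run of letters and not evidence of a bound factor. A gene can have several windows, as LPGAT1 does, so a share of windows is not a share of genes. The stretches below, each 30 bases and on the minus strand, show the LPCAT4 match (chr15:34367253-34367282), the GC box nearest the start of LPCAT1, the gene with the greatest difference in RNA (chr5:1523977-1524006), and the part of MBOAT7 where an m6A peak reached the gene start (chr19:54189556-54189585). Capitals mark the antioxidant response element core in LPCAT4, the GC box read on the opposite strand in LPCAT1, and the letters GGAC, a form of the m6A consensus, in MBOAT7.
LPCAT4: ggccggcgcccTGACAACGCgggcgggctg
LPCAT1: ggcgctcccgctCCGCCCacgtcacctccc
MBOAT7: atcccagtgtGGACctGGACtcgaatcccg

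In input RNA, LPCAT1 was the member that differed most between the lines, and it stood higher in A549/DDP. MBOAT7, LPCAT4 and AGPAT2 also had both A549/DDP libraries above both A549 libraries, by a factor of 2.12 to 3.43. LPCAT3 and LPGAT1 were separated by smaller margins, and MBOAT2, LPCAT2 and MBOAT1 overlapped. CPM values are used for differences of one gene between libraries, and TPM, which is per transcript length, for levels of different genes. Since these are bulk libraries, a change in the number of cells that express a gene and in the RNA per cell cannot be told apart.

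LPCAT1 (ENSG00000153395.9, chr5:1461427-1523960 in RefSeq) had 49.8 and 44.7 CPM in the A549 inputs and 466 and 448 CPM in the A549/DDP inputs. The lines did not overlap, and the libraries of each line lay close together, with means of 47.3 ± 3.59 and 457 ± 12.3 CPM (SD, n = 2 each). The log2 fold change was 3.27 with a standard error of 0.17, a 9.66-fold higher level in A549/DDP. Among 11348 genes with a mean of at least 5 CPM, 146 had a greater rise, as LPCAT1 was number 147 in that order.

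LPCAT2, which also makes platelet-activating factor precursors in inflammatory cells, had 7.75 and 8.49 CPM in A549 and 5.74 and 8.00 CPM in A549/DDP. The ranges overlapped, and the log2 fold change was -0.24 with a standard error of 0.57. LPCAT4 (ENSG00000176454.13) had 8.18 and 19.9 CPM in A549 and 44.2 and 52.1 CPM in A549/DDP. Both A549/DDP libraries were above both A549 ones, but the A549 libraries differed from each other by more than those of A549/DDP. The log2 fold change of 1.78 had a standard error of 0.46. Without A549 replicate 2 it was 2.54, and without A549 replicate 1 it was 1.26. LPGAT1, an acyltransferase first described for lysophosphatidylglycerol, had 145 and 118 CPM in A549 and 158 and 192 CPM in A549/DDP. Its highest A549 value lay close to its lowest A549/DDP value, and its log2 fold change was 0.41 with a standard error of 0.20. AGPAT2 (ENSG00000169692.12) turns lysophosphatidic acid into phosphatidic acid and so serves new synthesis of glycerolipids as well. It had 17.8 and 26.5 CPM in A549 and 55.3 and 38.9 CPM in A549/DDP. The lines did not overlap, and the log2 fold change was 1.09 with a standard error of 0.33.

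MBOAT7 (ENSG00000125505.16), which places arachidonic acid on lysophosphatidylinositol, had 54.7 and 53.1 CPM in A549 and 128 and 110 CPM in A549/DDP. The A549 libraries were nearly equal, and both A549/DDP libraries lay well above them, with a log2 fold change of 1.15 and a standard error of 0.19. Its start overlaps TSEN34 on the other strand, and whether the authors' counting used the strand of the reads is not given in the sources used here. LPCAT3, which adds polyunsaturated chains to lysophosphatidylcholine and is a known target of liver X receptors, had 32.0 and 32.5 CPM in A549 and 51.7 and 40.6 CPM in A549/DDP. The A549 libraries were nearly equal and those of A549/DDP were not. The log2 fold change was 0.52 with a standard error of 0.25. Its expected counts are not whole numbers, since the authors' estimation split part of its reads with other genes, and its level is uncertain to that extent. MBOAT2 had 12.2 and 19.2 CPM in A549 and 14.0 and 28.1 CPM in A549/DDP. Replicate 2 was the higher library in each line, the lines overlapped, and the log2 fold change of 0.43 (standard error 0.47) became -0.17 without A549/DDP replicate 2. MBOAT1, which acts on lysophosphatidylethanolamine and lysophosphatidylserine, was the lowest member, with 1.67 and 2.93 CPM in A549 and 1.72 and 0.917 CPM in A549/DDP. These ranges overlapped as well, and the log2 fold change of -0.80 had a standard error of 1.29.

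Counted over the 9 genes, 2, LPCAT1 and MBOAT7, were past an adjusted p of 0.05 and higher in A549/DDP, beside 6.85% of all genes tested, and 0 were lower, beside 8.00% of all genes. At an unadjusted p under 0.05 there were 4 members, beside 32.7% of all genes tested. Both A549/DDP libraries lay above both A549 libraries for 6 members, beside 29.7% of all genes tested, and 3 overlapped. The median log2 fold change was 0.52 over the members and -0.00159 over all genes tested. Since the contrast was used in choosing the list, nothing is read from these counts. LPCAT4 and AGPAT2 were past the threshold too in DESeq2, which gave a count of 4. MBOAT7 was no longer past it without A549/DDP replicate 1, with adjusted p = 0.0713 in edgeR.

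On the TPM scale the order of the members differed between the lines. In A549 MBOAT7 was highest with 53.7 ± 1.39 TPM, followed by LPCAT1 with 40.5 ± 4.07 TPM (SD, n = 2). LPGAT1, LPCAT3, AGPAT2, LPCAT4, LPCAT2 and MBOAT2 came next, from 33.3 down to 15.2 TPM, and no neighbours among these 6 were apart beyond the range of their libraries. MBOAT1 was last with 2.17 ± 1.04 TPM. In A549/DDP LPCAT1 came first with 246 ± 33.0 TPM, apart from MBOAT7 with 151 ± 3.67 TPM, which was in turn apart from LPCAT4 with 65.6 ± 8.10 TPM. LPCAT4, AGPAT2, LPGAT1, LPCAT3 and MBOAT2 formed a run in which no neighbours were apart, from 65.6 down to 27.7 TPM. LPCAT2 (6.30 ± 6.08 TPM) and MBOAT1 (1.22 ± 0.51 TPM) were the lowest. The 9 genes together summed to 208 and 282 TPM in A549 and 595 and 678 TPM in A549/DDP. LPCAT1 made up 18.0% and 15.4% of that sum in A549 and 37.4% and 39.7% in A549/DDP. The share of LPCAT3 was 13.5% ± 0.52 in A549 and 6.67% ± 0.34 in A549/DDP. Its own level was not lower in A549/DDP, with 33.1 TPM in A549 and 42.3 TPM in A549/DDP.

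**Figure D1:**
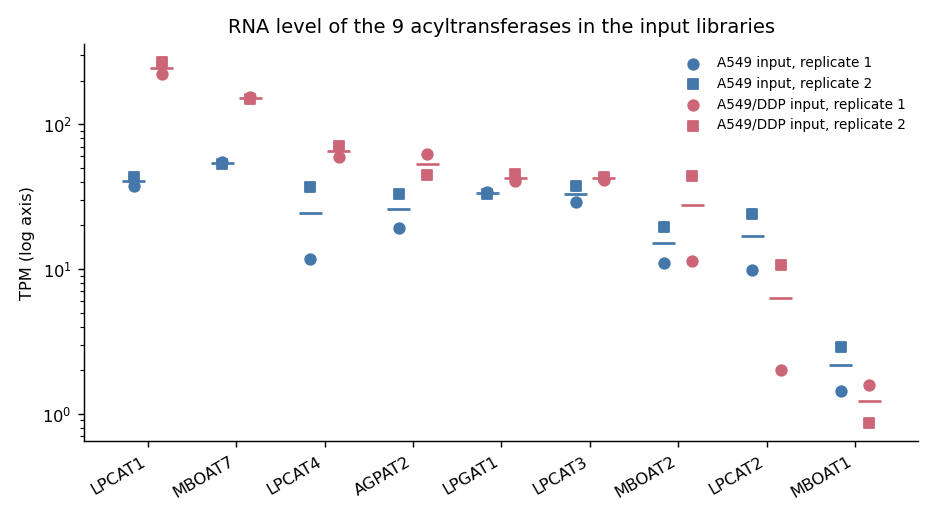
TPM of the 9 acyltransferases on a log axis, with 1 point for each input library (circles replicate 1, squares replicate 2) and a bar at the mean of each line. LPCAT1 is at 37.6 and 43.4 TPM in A549 and at 222 and 269 TPM in A549/DDP, while the points of MBOAT2, LPCAT2 and MBOAT1 overlap between the lines.

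The second pair of A549 inputs could place these genes only coarsely. Its libraries held 855034 and 982036 expected counts, 75.2% and 73.9% of them mitochondrial, and the 9 genes had 2 to 35 counts each when both libraries were summed. LPCAT1 had 4 and 2 counts, or 18.9 and 7.81 CPM when only counts outside mitochondrial genes made up the total, with exact 95% Poisson intervals of 5.15 to 48.4 and 0.946 to 28.2 that cover counting error only. The first pair gave 46.5 and 45.9 and A549/DDP 472 and 460 on the same scale. The A549/DDP values thus lay far above the upper bounds of both shallow libraries, and the second of these bounds lay below the first pair. LPGAT1, the most abundant member by counts, had 75.5 and 74.2 on that scale in the second pair against 135 and 121 in the first, and for LPCAT2 one library had 0 counts, where 3 counts would be the floor. From its 4 and 2 counts, LPCAT1 made up 43.5% and 2.01% of the TPM summed over the 9 genes in the second pair.

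The deposited tables also give a transcript length per gene that is weighted by the abundance of its isoforms, a measure of isoform mix. For LPCAT1 it was 2025 and 1828 bases in A549 and 3346 and 2715 bases in A549/DDP. The values did not overlap, and LPCAT1 was accordingly 6.07-fold higher in A549/DDP by TPM against 9.66-fold by CPM. For MBOAT7 the length went the other way, from 1555 and 1785 bases in A549 to 1403 and 1281 bases in A549/DDP, and its difference was 2.82-fold by TPM and 2.21-fold by CPM. LPCAT2 had 1250 and 706 bases in A549 and 4541 and 1301 bases in A549/DDP, and its TPM of 2.00 and 10.6 in A549/DDP moved apart accordingly. Of the 9 genes, 4 (LPCAT1, LPCAT2, LPCAT4 and AGPAT2) were longer in both A549/DDP libraries, beside 15.5% of all genes tested, and 1 (MBOAT7) was shorter in both, beside 15.0% of all genes. For AGPAT2 the difference was small, with 1450 ± 7.69 bases in A549 and 1486 ± 5.76 bases in A549/DDP (SD, n = 2). These lengths are estimates from the same reads as the levels, and they come with no test.

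Genes that lie beside LPCAT1 did not share its difference as a group. Within 1 Mb of it 17 other genes were tested, with a median log2 fold change of -0.16. Only SLC12A7, a potassium-chloride cotransporter, was past the threshold among them (log2 fold change 1.27, standard error 0.26, adjusted p = 0.0264 in edgeR), and it was not without A549/DDP replicate 1 (adjusted p = 0.106). The nearest tested gene on one side, CLPTM1L, had 321 and 213 CPM in A549 and 182 and 141 CPM in A549/DDP (log2 fold change -0.73, standard error 0.25, adjusted p = 0.108 in edgeR). On the other side SDHAP3, a pseudogene, had 0 to 3.73 CPM and a log2 fold change of 3.07 with a standard error of 2.58. SLC12A7 was named after its values were seen. Around MBOAT7 38 other genes were tested within 1 Mb, of which 1 was higher and 3 lower, with a median of -0.02. Around LPCAT4 there were 14, with 0 higher and 1 lower, and around AGPAT2 63, with 13 higher, 1 lower and a median of 0.45. LPCAT3 had 46 such neighbours, with 10 higher, 1 lower and a median of 0.46. LPGAT1 had 16, with 0 higher and 3 lower, and MBOAT2 11, with 1 higher and 2 lower. For LPCAT2 (9) and MBOAT1 (4), 0 were higher and 0 lower. Of all genes tested, 6.85% were higher and 8.00% lower.

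By distance of log2 CPM centred on each gene's mean over the 4 inputs, the genes most like LPCAT1 were FGL1, a fibrinogen-like protein secreted by hepatocytes (distance 0.17), FGA, the fibrinogen alpha chain (0.18), and HGD, an enzyme of tyrosine breakdown (0.18). Of 11348 genes with a mean of at least 5 CPM, 26 lay within 0.5 of LPCAT1. HGD had 9.48 and 8.52 CPM in A549 and 103 and 94.3 CPM in A549/DDP, a difference of the same size as that of LPCAT1 at a lower level. For LPCAT2, whose log2 fold change was the lowest of the members with at least 5 CPM, the nearest were PROSER3, METAP1 and DPH5, and 1643 genes lay within 0.5.

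Genes that work beside the acyltransferases were described from lists drawn up by role, 75 genes of which 68 were tested. Of all genes tested, 6.85% were higher in A549/DDP and 8.00% lower, with a median log2 fold change of -0.00159. These values stand beside the counts and medians of every group below. Of the 68 related genes, 13 were higher and 1 lower and 54 did not pass, with a median of 0.19. The count of higher genes was 4 when both A549 pairs entered, a fit in which 677 of all genes were called, and 5 by limma on log2(TPM + 1). Of the genes named in the next paragraphs, LCLAT1, PCYT2, LPIN3, PNPLA6, FASN, MLXIPL, INSIG1, NR1H2 and CDIPT did not pass by that limma test.

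Enzymes that supply acyl chains had 4 of 15 higher and 0 lower, with a median of 0.44. Log2 fold changes were above 0 for 9 of the 15 and below 0 for 6. Among those below 0, ELOVL1 (-0.88), ACSL4 (-0.88), ACSL3 (-0.50) and ELOVL2 (-0.98) had an unadjusted p under 0.05 in edgeR but did not pass. They were named after their values were seen. FADS2, the delta-6 desaturase of polyunsaturated fatty acids, was 3.90-fold higher (169 ± 68.3 CPM in A549 and 660 ± 10.8 CPM in A549/DDP, n = 2, adjusted p = 0.0110 in edgeR). FADS1, the delta-5 desaturase, was 2.40-fold higher (345 ± 50.01 and 828 ± 32.2 CPM, adjusted p = 0.00869 in edgeR). FASN, fatty acid synthase, was 2.50-fold higher (161 ± 32.7 and 401 ± 50.2 CPM, adjusted p = 0.0130 in edgeR). The fourth, SCD, the stearoyl-CoA desaturase, was named after its values were seen, with a 2.06-fold higher level and adjusted p = 0.0182 in edgeR, and 0.0785 without A549/DDP replicate 1.

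Phospholipases A and lysophospholipases, which make or remove the acyltransferases' substrates, had 2 of 13 higher and 0 lower, with a median of 0.31. PLA2G4A, the cytosolic phospholipase A that releases arachidonic acid, had a log2 fold change of 2.05 with a standard error of 0.26 (28.9 ± 8.06 and 120 ± 10.2 CPM, adjusted p = 0.00753 in edgeR). PNPLA6, a lysophospholipase, was 2.75-fold higher (21.7 ± 4.59 and 59.7 ± 4.21 CPM, adjusted p = 0.0189 in edgeR). Enzymes that build phospholipid headgroups had 4 of 21 higher and 0 lower, with a median of 0.00. PCYT2, which commits phosphoethanolamine to phosphatidylethanolamine, was 6.29-fold higher but at a low level in A549 (5.35 ± 2.88 and 33.7 ± 10.03 CPM, adjusted p = 0.0232 in edgeR). Its log2 fold change of 2.65 was 3.33 without A549 replicate 2, and 1.35 by limma on log2(TPM + 1), where it did not pass (adjusted p = 0.149). LPIN3, a phosphatidate phosphatase, was 4.21-fold higher by CPM (log2 fold change 2.07, adjusted p = 0.00911 in edgeR), but by limma on log2(TPM + 1) the log2 fold change was 1.10 and did not pass (adjusted p = 0.300). PTDSS1, a phosphatidylserine synthase, was 2.46-fold higher (adjusted p = 0.0330 in edgeR, and 0.0586 without A549/DDP replicate 1). The remaining one, CDIPT, the phosphatidylinositol synthase, was 1.92-fold higher with adjusted p = 0.0309 in edgeR, was named after its values were seen, and was not past the threshold without either A549/DDP library (adjusted p = 0.0933 and 0.125).

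Among 6 regulators of lipid genes 3 were higher and 0 lower, with a median of 1.29. MLXIPL, a carbohydrate-responsive transcription factor, had 2.67 ± 0.34 CPM in A549 and 14.2 ± 3.34 CPM in A549/DDP (log2 fold change 2.41, adjusted p = 0.0394 in edgeR, and 0.0516 without A549 replicate 1 and 0.0639 without A549/DDP replicate 2). INSIG1, which retains sterol-sensing complexes in the endoplasmic reticulum, was 3.64-fold higher (adjusted p = 0.0180 in edgeR). NR1H2, a liver X receptor, was 2.06-fold higher (adjusted p = 0.0289 in edgeR, and 0.144 without A549/DDP replicate 1). The other glycerolipid acyltransferases had 0 of 9 higher and 1 lower, with a median of 0.21. The lower one was LCLAT1, an acyltransferase for cardiolipin and phosphatidylinositol (77.2 ± 1.35 and 44.6 ± 2.96 CPM, adjusted p = 0.0474 in edgeR), which was not past the threshold without either A549/DDP library (adjusted p = 0.193 and 0.140). None of 4 tested genes of the remaining MBOAT superfamily passed, at an unadjusted p under 0.05 either, with a median of 0.09.

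**Figure D2:**
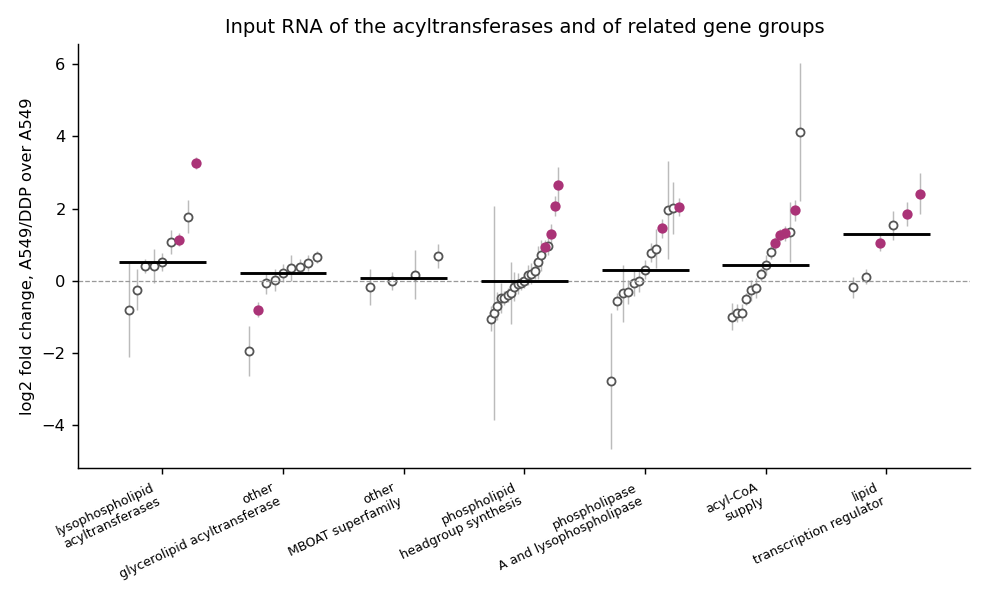
Log2 fold change (A549/DDP over A549) of the 9 acyltransferases and of 6 related gene groups, with standard errors as lines, filled points for an adjusted p under 0.05, and a black bar at the median of each group. The filled points are 2 acyltransferases and 14 related genes, and LCLAT1 is the filled point below 0.

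In m6A-seq the members carried few peaks that recurred between replicates. The authors called peaks in each library separately, and the 4 lists held 26320 and 14576 peaks for A549 and 27244 and 10661 for A549/DDP. The lists give no read depth, so the absence of a call says only that none was made. A peak was listed for 4 members in A549 replicate 1 (43.7% of all genes tested), 1 in A549 replicate 2 (30.6%), 5 in the first A549/DDP library (40.7%) and 1 in the other (22.2%). Both A549 lists held a peak for AGPAT2 only (27.1% of genes tested had one in both), and both A549/DDP lists for MBOAT7 only (19.5%). LPCAT2 and MBOAT2 had no peak in any list. Of 47 peaks on the members, 13 spread over at least 2 exon blocks. Merged where they shared at least 1 base, they made 36 regions, of which 32 were called in 1 library, 1 in 2, 3 in 3 and 0 in all 4. With 2 lists for each line and no counts, no difference between the lines was tested.

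LPCAT1 had 3 peaks over 1201 bases in A549 replicate 1, with p-values of 4.4e-07 to 1.9e-06, and none in the other lists. The last of them (chr5:1461495-1462094) ended 68 bases before the gene end, and all 3 lay towards the end of the gene, from 79.8% to 99.9% of its span. No peak was thus listed in A549/DDP, where LPCAT1 RNA was higher, and A549 replicate 2 had none either. LPCAT4 showed the opposite arrangement, with 7 peaks over 906 bases in A549/DDP replicate 1, from 23.3% to 94.3% of the span and all with a p-value of 1.8e-10. The other 3 lists held none. Since all 7 had the same p-value, it does not rank them.

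MBOAT7 had 10 peaks in A549 replicate 1, 0 in A549 replicate 2 and 3 in each A549/DDP library. Its peaks in A549 replicate 1 exceeded the 95th percentile of peaks per marked gene in that list, 8, and the median, 3. A region near the gene end (chr19:54173462-54178415), the union of peaks that also bridge an intron, and one near the start (chr19:54187222-54188378) were called in 3 of the 4 libraries. The peak of A549 replicate 1 at chr19:54189433-54189632 covered 102 bases of the promoter window and the gene start, where GGAC occurs at offsets 5 and 11, as printed above. GGAC was found in the last 50 bases of 18.9% of all windows. AGPAT2 had 2 and 1 peaks in A549 and 4 and 0 in A549/DDP, and one region 50 bases from the gene end (chr9:136673193-136673842) was called in 3 of the 4 libraries, with p-values of 0.00014 to 0.0028. Its A549/DDP replicate 1 peak near the start overlapped 16 bases of the promoter window, with no GGAC in them.

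LPGAT1 had 9 peaks in A549/DDP replicate 1 only, with p-values of 0.0018 to 0.019. LPCAT3 had 4, again in A549/DDP replicate 1 only, with p-values of 0.001 to 0.028, and 1 of these joined exon blocks on both sides of a long intron. MBOAT1 had 1 peak in A549 replicate 1 (p-value 5.9e-06), although its input RNA was the lowest of the members. Of the 9 peaks on LPGAT1, 8 lay between 92.6% and 97.7% of the span and 1 near the start. A p-value at or below 1e-05 left no member with a peak in both libraries of either line.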

How the data were processed

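The deposited input tables hold, per gene, expected counts, which are estimates that the authors did not normalize. They also hold TPM and FPKM, in which the authors allowed for length and sequencing depth. The deposited peak lists, 1 for each m6A-seq library, carry a p-value, and whether it is raw or adjusted is not stated. The submitters' processing notes name STAR, RSEM, bedtools and hg38, and the peak caller is not given in the sources used here. Libraries were strand-specific (dUTP).

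Groups and replicate numbers came from the sample titles, and input and m6A-seq libraries were not matched by number. The numbers in the names of the A549 m6A-seq peak lists are the reverse of those in the titles, so by those names replicates 1 and 2 would trade places in what is said of A549 peaks. The tables held 58037 identifiers, and 56993 were matched to a symbol. Expected counts were rounded. Genes were kept by filterByExpr, libraries were scaled by TMM, and A549/DDP (2 inputs) was compared with the first A549 pair (2 inputs) by the two-sided quasi-likelihood test of edgeR 4.0.16 (glmQLFit, glmQLFTest; R 4.3.3). P-values were adjusted by the Benjamini-Hochberg method over 16406 genes, with a threshold of 0.05. The script was tested on simulated data with less spread than these libraries, so that test does not show its error rate here. Each standard error was approximated as the absolute log2 fold change divided by the root of the F statistic. FPKM entered only a repeat of the TPM shares. Alternatives were DESeq2 1.42.0, limma 3.58.1 on log2(TPM + 1) or log2(TPM + 0.1), other filters and scaling, a replicate block, the second A549 pair, leaving out each library, and stricter or looser rules for peaks. Depth was 29225501 to 35286514 counts in the 4 inputs, and that of the m6A-seq libraries is unknown.

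The members, lists and tests were chosen with earlier results of these data known. Named genes are all members and up to 3 genes of each related group. The latter had the largest absolute log2 fold change among those past the threshold with mean CPM at or above 5. Also named are the 3 genes closest to each of 2 members. These had the largest rise and the largest fall among members with mean CPM at or above 5, which leaves out MBOAT1. Promoter windows, gene spans and neighbours are from RefSeq (GRCh38.p14), and no genome sequence was used here. Python 3.11.15 was used for the rest. YTHDF1-bound RNA was not analysed here, and a member of the leukocyte marker list is not reported here.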

Additional observations from a re-analysis of the deposited data

How the results depend on the processing

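The directions of LPCAT1, MBOAT7, LPCAT4, AGPAT2, LPCAT3 and LPGAT1 were the same in all 14 alternatives, and those of LPCAT2 and MBOAT1 were too, while MBOAT2 ran from -0.17 (without A549/DDP replicate 2) to 0.82 (without A549/DDP replicate 1) when a library was left out. LPCAT1 passed in 13 of 14 (log2 fold change 2.57 to 4.19), MBOAT7 in 11, LPCAT4 in 8 and AGPAT2 in 5. The count of higher members, 2, was 4 with DESeq2, with no filter beyond 1 count, and with at least 10 counts in every library, 1 with both A549 pairs, 0 with limma on unfiltered log2(TPM + 1), where 0 of all genes were called, and 2 to 4 when a library was left out. Upper-quartile scaling gave 3 higher members. A line left with 1 library is assumed to vary like the other. Higher related genes, 13, were 4 with both pairs, 5 and 4 with limma on log2(TPM + 1) and log2(TPM + 0.1), and 0 with limma unfiltered. Lower related genes, 1, were 6 with DESeq2, 4 without filter, 5 with at least 10 counts, 4 with the second pair, 0 with upper-quartile scaling, both pairs or limma unfiltered, and 0 to 4 with a library left out. The causes were not tested. The calls over all genes ranged from 0 (limma unfiltered) to 4234 (DESeq2), against 2437. With the second pair the median over all genes moved to 0.80.

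Same-numbered libraries did not deviate together (correlation 0.03, 2 pairs), so the numbers do not show a pairing. With a replicate block 4 members were higher, and 5 related genes were lower.

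Members with a peak in both A549 lists, 1, were 0 at a p-value at or below 1e-05, 4 for a peak in either list, and 1 to 4 with a list left out. For A549/DDP, 1, they were 0, 5, and 1 to 5. Regions in every list, 0, ran to 0 to 2 with a list left out, those in A549 only to 0 to 10 and those in A549/DDP only to 0 to 22, the upper ends without replicate 2 of the line. Unknown m6A-seq depth limits every statement on missing peaks.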
